A study of Homo sapiens with 12 samples.

Results

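The transcripts of 9 tight junction genes were followed in MDA-MB-231 cells, an established human breast cancer cell line, after transfection of a miR-145-5p mimic and silencing of Ago2. The genes were F11R, which encodes junctional adhesion molecule A (JAM-A), JAM2, JAM3, CXADR, OCLN, MARVELD2, CLDN1, TJP1 and CGN. They were chosen by gene symbol, through the RefSeq transcript that each probe of the array was designed for, and they are 9 of the 20708 genes that could be named on it, with 113 of its 233164 probes. Cells of the group cntrl received control oligonucleotides for the mimic and for the siRNA. Cells of the group mimic145 received the miR-145-5p mimic, for which the labels give 5 nM; the labels do not say whether these cells also received the control siRNA. In the group sirnaAGO2 the cells received a Dicer-substrate siRNA against AGO2 at 500 pM for 72 h, and in the group sirnaAGO2+mimic145 they received both. Nor do the labels say whether sirnaAGO2 cells received the control mimic, which cntrl cells did. Each group was measured on 3 single-color exon arrays from 3 biological replicates of this 1 cell line, 12 arrays in all.

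Tight junctions seal the space between neighbouring epithelial cells and mark the border between their apical and basolateral membranes. Claudins and the MARVEL proteins span the membrane and build the strands, JAM-A and its relatives are immunoglobulin-type adhesion molecules beside them, and scaffolds such as ZO-1 and cingulin tie all of these to actin. JAM-A also binds afadin and exchange factors for Rap GTPases, through which it acts on integrins, and it is known from studies of breast cancer cells as a protein linked to their migration.

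A microRNA recognises most of its target transcripts through its seed, bases 2 to 8, and an Argonaute protein such as Ago2 carries it there. The mature microRNA that the mimic supplies is given here 5′ to 3′ with the seed in capitals, since its letters define which transcripts it can pair with (RefSeq, GRCh38.p14, chr5:149430661-149430683, plus strand).
hsa-miR-145-5p: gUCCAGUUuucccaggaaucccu
A transcript that pairs with the whole seed reads AACUGGA at the site. Where such sites lie in the 9 transcripts was not analysed here.

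Values are normalized log2 signals: the intensity of each spot, corrected for background by the scanner software, was quantile normalized over the 12 arrays, and a gene was averaged over its kept probes. A probe was kept where the scanner software marked it as well above background throughout the 3 arrays of some group, be it 1 group or more. All 9 genes had a kept probe, but only 73 of their 113 probes were kept. For F11R 12 of 13 were kept, for TJP1 28 of 28, for OCLN 12 of 12, for CXADR 7 of 9 and for MARVELD2 6 of 8. CGN kept 4 of 20, JAM2 2 of 10, JAM3 1 of 9 and CLDN1 1 of 4. A difference is between log2 signals, and a gene is called changed where the p of limma was under 0.05 after Benjamini-Hochberg adjustment across the 18253 genes tested. Signals of different probes are not comparable as levels, so genes are compared by their differences and not by their signals. In such bulk samples, fewer cells that express a gene and less RNA per cell cannot be told apart.

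The share of spots that passed this mark ran from 60.5% to 77.3% over the arrays. Each of the 6 slides carried 2 arrays of 1 replicate number, with and without the mimic, from either control or silenced cells. The array with the mimic was always at the second position and on 5 of 6 slides it had the smaller share of spots above background, so position and mimic cannot be told apart, nor can slide and silencing. AGO2, the targeted gene, was lower by 0.71 in sirnaAGO2 than in cntrl (limma, adjusted p = 0.00491) and by 1.06 in sirnaAGO2+mimic145 than in mimic145 (adjusted p = 0.000783), with every silenced array below every other. The fall was partial, and AGO2 still had a probe well above background on every silenced array. With the mimic in control cells AGO2 was higher by 0.28 (limma, adjusted p = 0.0298), a call that held in 14 of 27 alternative settings. Of 7 markers of mesenchymal breast cancer cells all 7 were detected. Of 8 luminal and epithelial markers 6 were detected as well, among them GATA3 and KRT19 with 6 of 6 probes kept and EPCAM with 9 of 10. PGR and FOXA1 had no kept probe. Most markers of either list were thus detected. The claudins CLDN3, CLDN4 and CLDN7, which are low in claudin-low tumours to which MDA-MB-231 is commonly assigned, each had a probe above background on all 12 arrays.

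F11R had the largest difference of the 9 genes with the mimic in control cells, with the mimic in silenced cells and after silencing alone. JAM-A, its product, is a homophilic adhesion molecule of the tight junction. In cntrl the F11R signal was 8.51, 8.47 and 8.61 on the 3 arrays (mean 8.53 ± 0.07, SD, n = 3). It was 6.83, 6.96 and 7.01 in mimic145 (6.94 ± 0.09). All 3 mimic145 arrays lay below all 3 cntrl arrays by far more than the arrays of either group differed among themselves. The log2 difference was -1.60 (SE 0.10, limma, adjusted p = 6.66e-05), which leaves 33.0% of the signal, a 3.03-fold fall, and it was -1.68, -1.51 and -1.61 in the 3 replicate pairs. Of all genes 22.6% were called in this comparison, 2006 of the 18253 as lower, and in 13.5% the groups did not overlap with mimic145 lower. By the size of its fall F11R was at place 25 of 18253 genes.

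With Ago2 silenced, F11R also fell with the mimic. Its signal was 7.80, 7.84 and 7.89 in sirnaAGO2 (7.84 ± 0.04) and 7.16, 6.80 and 6.82 in sirnaAGO2+mimic145 (6.93 ± 0.20). The groups did not overlap, and replicate 1 stood above the others in sirnaAGO2+mimic145. The log2 difference was -0.92 (SE 0.10, limma, adjusted p = 0.00503), with 53.0% of the signal left and -0.64, -1.04 and -1.07 in the 3 replicate pairs. Here 3.03% of all genes were called lower and 10.2% did not overlap in this direction. The call was lost without replicate 2 (adjusted p = 0.132), without replicate 3 (adjusted p = 0.166) and where only these 6 arrays were fitted (adjusted p = 0.101, limma), with differences of -0.86, -0.84 and -0.92.

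Ago2 silencing alone lowered F11R too. The sirnaAGO2 arrays, given above, lay between those of cntrl and those of mimic145 and overlapped with neither. The log2 difference from cntrl was -0.69 (SE 0.10, limma, adjusted p = 0.0167), which leaves 62.0% of the signal, with -0.71, -0.64 and -0.72 in the 3 pairs. In this comparison 1.69% of all genes were called lower, and 10.6% did not overlap with sirnaAGO2 lower. This comparison and that of mimic145 with cntrl share the cntrl arrays. The adjusted p rose to 0.0513 or more without any 1 of the 6 arrays compared or any replicate (at most 0.210), while the difference stayed between -0.65 and -0.72. Arrays with and without silencing lay on different slides, and with slides as a random block the adjusted p was 0.0435 (limma).

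Silencing on top of the mimic left F11R where it was within the error. The difference of sirnaAGO2+mimic145 from mimic145 was -0.01 (95% confidence interval -0.24 to 0.22, limma, adjusted p = 0.977), with 0.32, -0.16 and -0.19 in the 3 pairs. In order of signal the groups were cntrl, sirnaAGO2, mimic145 and sirnaAGO2+mimic145, and the last pair did not differ beyond its spread. The mimic effect itself was smaller in size by 0.68 in silenced cells than in control cells (SE 0.14, 95% confidence interval 0.35 to 1.01), and smaller in each of the 3 replicates, by 1.04, 0.48 and 0.53. That difference did not pass after adjustment (limma, unadjusted p = 0.0011, adjusted p = 0.0898), in a test that called 0.0110% of all genes. It passed in 2 of 26 alternative settings. These were normexp background correction (0.51, limma, adjusted p = 0.0349), which called 150 genes in this test in place of 2, and a stricter filter on dim probes. That filter asked for all 12 arrays above background (0.76, adjusted p = 0.0208). Without the replicate block the adjusted p was 0.323.

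**Figure D1:**
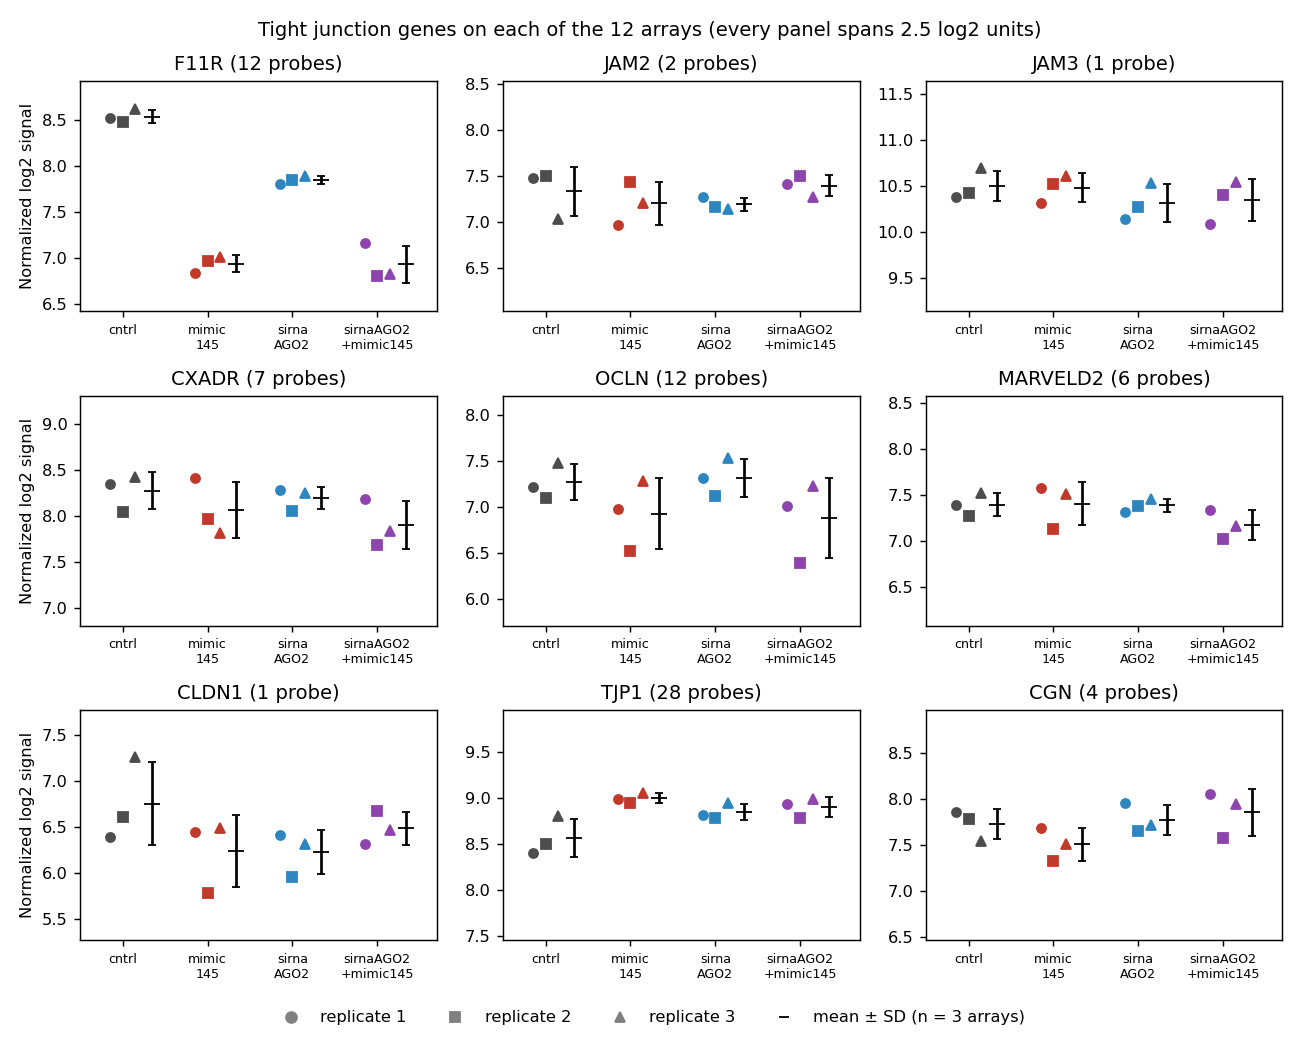
Normalized log2 signal (vertical axis) of the 9 genes in the 4 groups (horizontal axis). Colored points are the 3 arrays of a group, with the marker giving the replicate number, and the black bar is their mean ± SD; every panel spans the same height. F11R separates into 3 levels, at 8.53 in cntrl, 7.84 in sirnaAGO2 and about 6.9 in both groups with the mimic, while the groups of most other genes overlap.

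The F11R probes, all designed for the transcript NM_016946, moved together. In control cells all 12 kept probes were lower with the mimic in all 3 replicate pairs, and all 12 were called, with differences from -2.15 (probe A_24_P319364) to -1.12. Over all 142929 kept probes 7.29% were called lower and 23.5% were lower in all 3 pairs. In silenced cells all 12 were again lower in all 3 pairs (23.2% of all kept probes), and 7 were called, against 0.891% of all. The 11 that were well above background on some array with the mimic there lay between -1.24 and -0.43. After silencing alone all 12 were lower in all 3 pairs (22.7% of all), from -1.0 to -0.33, and 6 were called, against 0.348% of all. The 13th probe, A_37_P350192, was not well above background on most arrays and was left out. A probe could be kept through a group where it was bright, which can favour a fall in the other groups. Only 5 of the 12 were well above background on all 12 arrays. Under a filter that asked for this, all 5 were called with the mimic in control and in silenced cells.

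For the difference of the mimic effects, limma called none of the 12 probes (0.00% of all kept probes), although 9 had an unadjusted p under 0.05, as had 12.1% of all kept probes. Several probes ran into the background in the cells with the mimic. Only 5 of the 12 were well above it on all 12 arrays, and on these 5 F11R fell by 1.69 in control and by 0.93 in silenced cells (limma, adjusted p = 5.2e-06 and 0.00026). Probe A_37_P126484 was at background on every array with the mimic, so its fall is a bound. For this bound the lowest signal of any probe well above background on an array stands for the dim group, which is not this probe's own limit. By it the probe was at least 2.74-fold lower in mimic145 than in cntrl and at least 1.82-fold lower in sirnaAGO2+mimic145 than in sirnaAGO2. The p-values belong to its measured signals and not to the bounds (limma, adjusted p = 0.0078 and 0.0452).

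**Figure D2:**
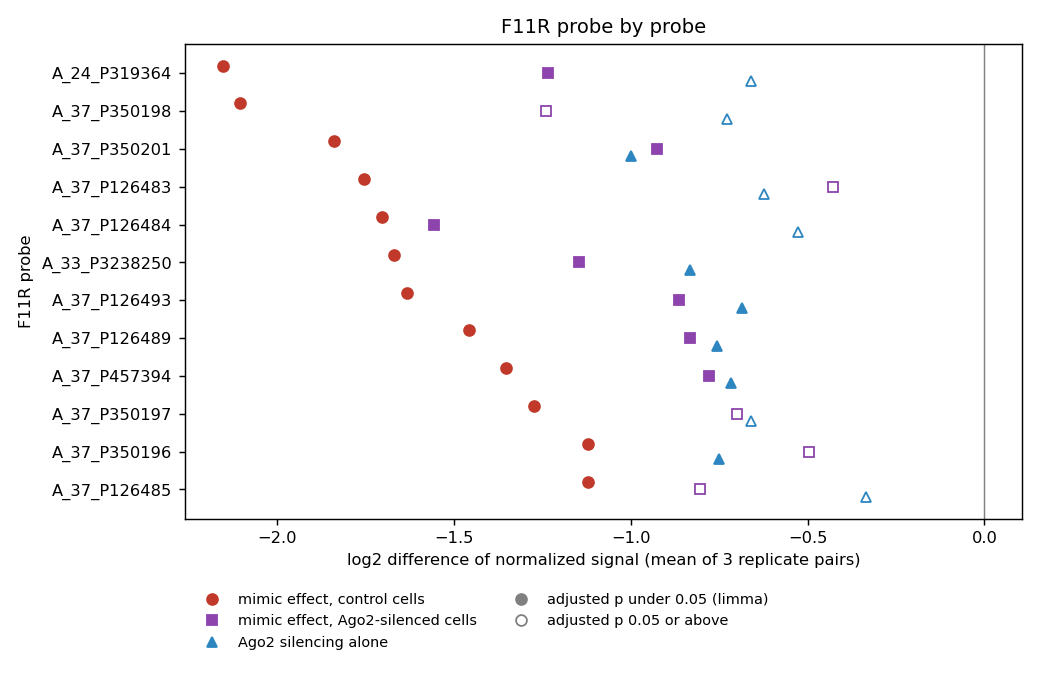
Log2 difference (horizontal axis, mean of 3 replicate pairs) of each of the 12 kept F11R probes (vertical axis, ordered by the mimic effect in control cells). Circles are the mimic effect in control cells, squares that in Ago2-silenced cells and triangles Ago2 silencing alone; filled markers have an adjusted p under 0.05 (limma). Every marker is left of 0, and all 12 circles lie left of the square of the same probe; the circle and square of A_37_P126484 rest on signals that were not well above background with the mimic.

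The other JAM genes gave little to measure in these cells. JAM2 encodes JAM-B and JAM3 encodes JAM-C, which bind each other and are best known from endothelium and leukocyte traffic. JAM2 rested on 2 probes, with signals between 6.97 and 7.5 on the 12 arrays. Its difference with the mimic was -0.13 in control cells (95% confidence interval -0.42 to 0.16) and 0.20 in silenced cells (-0.09 to 0.49), and neither passed (limma, adjusted p = 0.499 and 0.324). JAM3 rested on probe A_37_P205933, with signals between 10.09 and 10.69. Its mimic effects were -0.02 (-0.18 to 0.14) and 0.03 (-0.13 to 0.19), intervals that leave out a fall of the size of F11R. After silencing alone JAM3 was at -0.19, lower in 3 of 3 pairs, with an adjusted p of 0.197.

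CXADR encodes the coxsackievirus and adenovirus receptor, an immunoglobulin-type junction protein related to the JAMs. The gene was not called in any comparison: its difference with the mimic was -0.21 in control cells (SE 0.12, limma, adjusted p = 0.250) and -0.29 in silenced cells (adjusted p = 0.149). Its kept probes are given here by the transcript that each was designed for. The 5 kept probes for NM_001207066 lay between -0.10 and 0.13 in control cells and between -0.19 and -0.06 in silenced cells. The 2 kept probes for NM_001338 were each lower in 3 of 3 pairs in both, and of these A_23_P57268 was at -0.51 in control and at -0.48 in silenced cells.

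The other, A_24_P374943, was called in control cells, but on no mimic145 array was it well above background. Its signal was 7.29, 6.56 and 7.31 in cntrl and 6.80, 5.77 and 5.63 in mimic145 (limma on these signals, adjusted p = 0.0483). The groups thus overlapped through replicate 1 of mimic145 and replicate 2 of cntrl. By the same bound as above the fall was at least 1.85-fold. Probe A_23_P57268 had signals of 8.55, 8.57 and 8.54 in cntrl and 8.50, 7.96 and 7.67 in mimic145 (adjusted p = 0.0972). Both probes left out for CXADR were dim. CXADR has pseudogenes in RefSeq, and whether a probe also reads one of them was not tested.

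OCLN and MARVELD2 encode occludin and tricellulin, the MARVEL proteins of tight junction strands and of the corners where 3 cells meet. OCLN was called lower with the mimic in both arms. Its signal was 7.22, 7.10 and 7.49 in cntrl and 6.98, 6.52 and 7.28 in mimic145, and the groups overlapped. The log2 difference was -0.34 in control cells (SE 0.11, limma, adjusted p = 0.0459) and -0.44 in silenced cells (adjusted p = 0.0417), and it was negative in all 3 pairs of each. These calls were near the threshold: OCLN passed in 5 of 27 alternative settings in control cells and in 6 of 27 in silenced cells, and in neither without any 1 replicate (adjusted p from 0.0992 to 0.219).

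These values came from a minority of the OCLN probes. Probe A_37_P447576 had signals of 10.26, 10.02 and 10.98 in cntrl and 6.13, 7.29 and 9.62 in mimic145. In sirnaAGO2 it had 9.90, 9.15 and 11.06, and in sirnaAGO2+mimic145 7.03, 4.28 and 8.12. Within each arm its arrays with the mimic were all below those without, with a spread of several log2 units among themselves, and its differences were -2.74 and -3.56 (limma, adjusted p = 0.0253 and 0.0408). It was well above background on 2 of the 3 arrays of each group with the mimic. Probe A_37_P002240 was at -1.20 and -1.40 and was not called (adjusted p = 0.0542 and 0.0744). The other 10 probes lay between -0.38 and 0.37 in control cells and between -0.45 and 0.39 in silenced cells, with medians of -0.04 and -0.06, and none was called.

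Without probe A_37_P447576, an alternative chosen after its values were seen, OCLN was at -0.12 and -0.16 (limma, adjusted p = 0.406 and 0.322). With only the 4 probes that were well above background on all 12 arrays it was at 0.04 and 0.09, and without the replicate block the adjusted p was 0.409 and 0.371. A transcribed pseudogene, OCLNP1, is listed beside OCLN in RefSeq, and which probes read it was not tested.

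MARVELD2 did not pass in any comparison, with mimic effects of 0.01 in control cells (95% confidence interval -0.21 to 0.23) and -0.21 in silenced cells (-0.43 to 0.01). The mimic moved its probe A_37_P005324, for NM_001244734, in opposite directions in the 2 arms, and the probe is named for that reason. In control cells its signal was 7.35, 7.02 and 7.49 without and 7.68, 7.09 and 7.60 with the mimic, and in silenced cells 7.41, 7.16 and 7.44 without and 6.87, 6.47 and 6.73 with it. The difference in silenced cells was -0.65 (limma, adjusted p = 0.026), and that between the arms was -0.81 and did not pass (adjusted p = 0.163). The other kept probe for NM_001244734 did not share this pattern, at -0.25 in control and -0.07 in silenced cells.

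CLDN1 encodes claudin-1, a sealing claudin of epithelial strands. It rested on 1 probe, A_37_P010008, with signals from 5.78 to 7.26 near the lower end of what was measurable. In cntrl it had 6.39, 6.61 and 7.26, and in mimic145 6.44, 5.78 and 6.49, so the groups overlapped. Its mimic effects of -0.52 (95% confidence interval -1.01 to -0.02) and 0.26 (-0.23 to 0.76) did not pass (limma, adjusted p = 0.126 and 0.456) in intervals wider than those of any other of the 9 genes. With normexp background correction CLDN1 passed in control cells (-0.35, limma, adjusted p = 0.0330).

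TJP1 moved in the opposite direction to F11R. It encodes ZO-1, the scaffold that binds the tails of claudins, occludin and JAM-A and links them to actin. Its signal was 8.4, 8.5 and 8.8 in cntrl (8.57 ± 0.21, SD, n = 3) and 8.99, 8.95 and 9.06 in mimic145 (9.0 ± 0.05). All mimic145 arrays lay above all cntrl arrays. The log2 difference was 0.43 (SE 0.08, limma, adjusted p = 0.00502), a 1.35-fold rise, with 0.59, 0.45 and 0.25 in the 3 pairs. Of its 28 probes 27 were higher, each in all 3 pairs (28.2% of all kept probes), and 16 were called higher, against 8.10% of all kept probes. All 9 probes for NM_003257 were among the 27, as were 18 of 19 for NM_175610. Over all genes 11.6% were called higher.

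In silenced cells TJP1 did not pass with the mimic: the signal was 8.82, 8.79 and 8.95 in sirnaAGO2 and 8.93, 8.78 and 8.99 in sirnaAGO2+mimic145, with a difference of 0.05 (95% confidence interval -0.13 to 0.23, limma, adjusted p = 0.725). The difference between the mimic effects was -0.38 and lay below 0 in 3 of 3 pairs, without passing after adjustment (limma, adjusted p = 0.158). After silencing alone TJP1 was at 0.29 (limma, adjusted p = 0.0969), higher in 3 of 3 pairs. The rise in control cells was no longer called without replicate 1 (adjusted p = 0.0875), without replicate 2 (0.0632) or where only the arrays of cntrl and mimic145 were fitted (0.0596), at values of 0.35, 0.42 and 0.43.

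CGN encodes cingulin, an actin and myosin binding scaffold on the cytoplasmic face of the junction. Only 4 of its 20 probes were kept. Its mimic effects were -0.22 (95% confidence interval -0.46 to 0.01) and 0.08 (-0.15 to 0.31), and none of its 5 comparisons passed. The nearest was sirnaAGO2+mimic145 against mimic145, at 0.35 and higher in 3 of 3 pairs (limma, adjusted p = 0.0908).

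**Figure D3:**
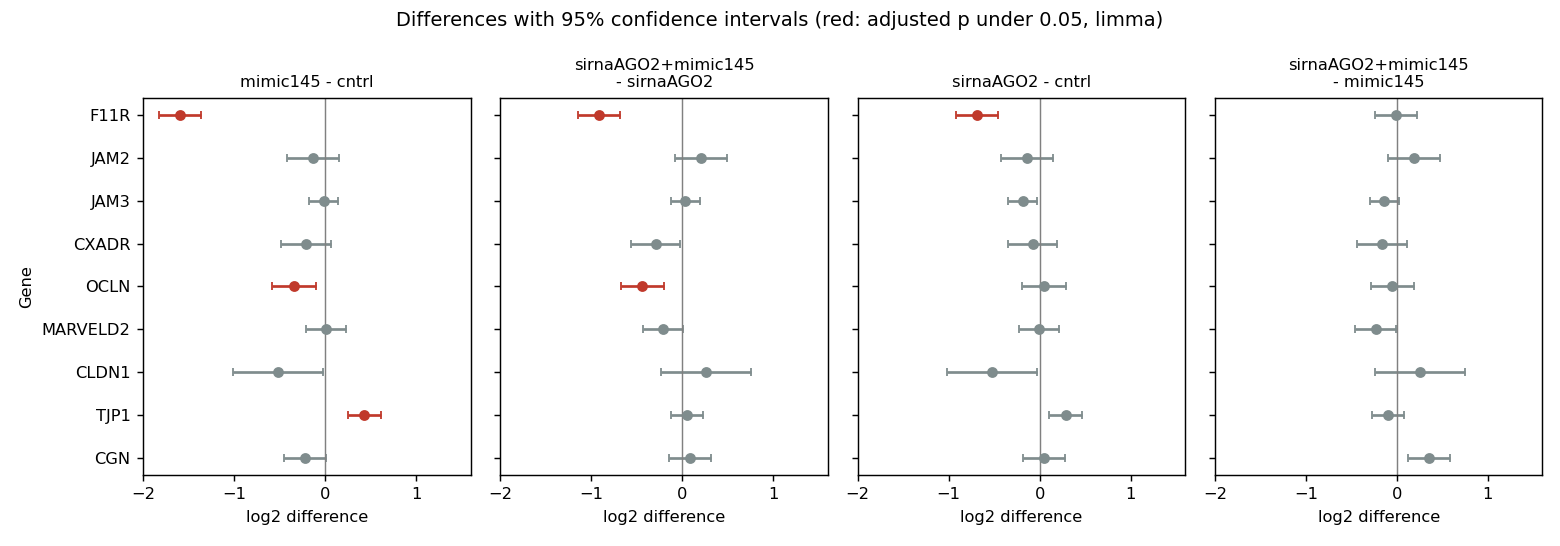
Log2 difference (horizontal axis) of the 9 genes (vertical axis) in 4 comparisons (panels), with 95% confidence intervals from limma; red points have an adjusted p under 0.05. F11R is called in the first 3 panels, at -1.60, -0.92 and -0.69, and OCLN in the first 2, while TJP1 is called in the first, at 0.43, and no gene in the fourth.

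Of the 9 genes, 3 were called with the mimic in control cells, where 22.6% of all genes were: F11R and OCLN lower and TJP1 higher. In silenced cells 2 were called (7.28% of all genes), F11R and OCLN. After silencing alone F11R was called and the other 8 were not (2.58% of all genes). No member passed between sirnaAGO2+mimic145 and mimic145, where 4.32% of all genes did and where 2 members, CGN and MARVELD2, had an unadjusted p under 0.05 by limma, as had 21.5% of all genes. None passed for the difference of the mimic effects, where F11R, TJP1 and CLDN1 had an unadjusted p under 0.05, as had 16.8% of all genes. The median difference over the 9 was -0.21 in control and 0.03 in silenced cells, beside 0.01 and 0.02 over all genes.

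**Figure D4:**
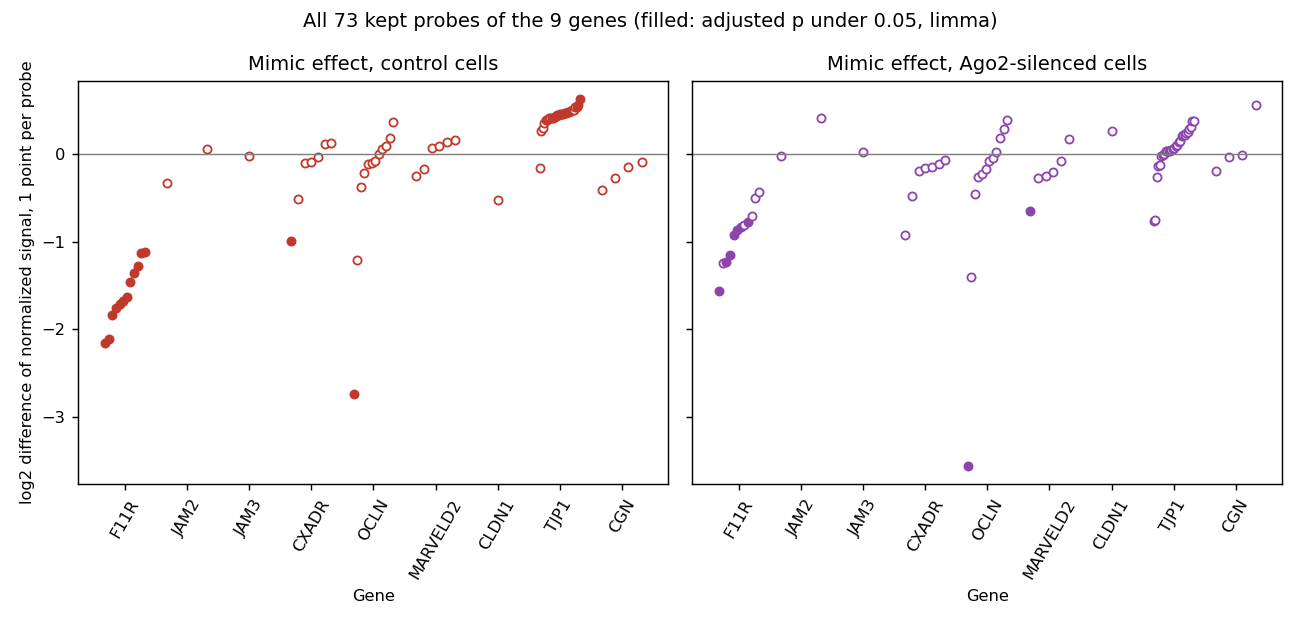
Log2 difference with the mimic (vertical axis) for the 73 kept probes, 1 point each and ordered by value within a gene (horizontal axis), in control cells (left) and Ago2-silenced cells (right); filled points have an adjusted p under 0.05 (limma). The 12 F11R probes lie below 0 as a group, 27 of 28 TJP1 probes lie above 0 in control cells, and OCLN has 1 point at -2.74 and -3.56 apart from the rest.

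The wider pathway was read from lists of 76 genes, of which 71 were tested and 62 were not among the 9. With the mimic in control cells 21 of the 62 were called (22.6% of all genes), 7 higher and 14 lower. In silenced cells 7 were called (7.28% of all genes), 3 higher and 4 lower. After silencing alone 1 was higher and 2 were lower (2.58% of all genes were called), and between sirnaAGO2+mimic145 and mimic145 4 were higher (4.32%). None was called for the difference of the mimic effects, although 13 of the 62 had an unadjusted p under 0.05 by limma, beside 16.8% of all genes. When single replicates or arrays were left out, the count of 21 ranged from 6 to 22, that of 7 from 0 to 12, and those of 3 and 4 each from 0 to 4. Without the replicate block these 4 counts were 9, 1, 1 and 0. With slides as a random block in its place, at a correlation within slides of 0.39, they were 20, 6, 1 and 0. With 75th percentile scaling the 7 became 11, 6 higher and 5 lower, and the 21 became 13, 4 higher and 9 lower.

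Among proteins that bind or signal from JAM-A, 6 of 13 were called with the mimic in control cells (22.6% of all genes), 2 higher and 4 lower. RAPGEF2, an exchange factor that activates Rap GTPases, had signals of 8.23, 7.90 and 8.15 in cntrl and 7.30, 7.18 and 7.34 in mimic145. It fell by 0.82 (limma, adjusted p = 0.000767), and in silenced cells by 0.55 (adjusted p = 0.0198). RAP1B, one of those GTPases, had 9.25, 9.34 and 9.60 in cntrl and 10.43, 10.14 and 10.52 in mimic145. It rose by 0.97 (adjusted p = 0.000424), the largest rise in the lists in this comparison. Neither pair of groups overlapped, and the exchange factor and the GTPase thus changed in opposite directions.

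RAP1B also rose after silencing alone, by 0.49 (limma, adjusted p = 0.0429), a call near the threshold. It was at 0.25 with the mimic in silenced cells, where it did not pass. The integrin subunits ITGAV (-0.34) and ITGB3 (-0.55) fell in control cells, as did TIAM1 (-0.34), an exchange factor for Rac, and CASK, a PDZ scaffold, rose by 0.26. ITGB1, the integrin subunit through which JAM-A affects migration in epithelial cells, was called in silenced cells at -0.35 (adjusted p = 0.0447) and was at -0.15 in control cells. The median over the 13 was -0.08 in control cells, and CD9, RAP1A, RAP2C and RAPGEF6 stayed between 0.05 and 0.10 without passing.

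Polarity proteins place the tight junction at the apical border, and 5 of the 10 tested were called with the mimic in control cells (22.6% of all genes), 4 of them lower (2006 of the 18253 genes). PALS1, the core of the Crumbs complex, had signals of 9.14, 8.89 and 9.19 in cntrl and 8.23, 8.21 and 8.12 in mimic145. It fell by 0.89 (limma, adjusted p = 0.000205) and in silenced cells by 0.62 (adjusted p = 0.00684). PATJ, the scaffold that joins PALS1 to ZO-3 and claudins, had 8.06, 7.79 and 8.13 in cntrl and 7.16, 7.08 and 7.21 in mimic145. It fell by 0.85 (adjusted p = 0.000248), in silenced cells by 0.48 (adjusted p = 0.0154) and after silencing alone by 0.37 (adjusted p = 0.0455). Like F11R, PATJ was thus called lower in each of these 3 comparisons, and no other gene of the lists was. Its call after silencing alone was near the threshold. With slides as a random block, 1 of the 62 list genes outside the 9 was called after silencing alone, in place of 3.

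PARD6B, a subunit of the Par complex, had another pattern. It was at 10.75, 10.78 and 10.75 in cntrl, at 10.02, 9.92 and 9.92 in mimic145 and at 10.06, 10.33 and 10.06 in sirnaAGO2. It fell by 0.80 with the mimic (limma, adjusted p = 0.00058) and by 0.61 after silencing alone (adjusted p = 0.0167). In silenced cells the mimic difference was 0.03, and the difference between the effects, 0.83, had an adjusted p of 0.0614. Its paralog PARD6A rose by 0.44 in control cells, and the atypical kinases PRKCI and PRKCZ fell by 0.30 and 0.26.

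Of the 15 scaffolds 6 were called in control cells (22.6% of all genes), TJP1, AMOT and TJAP1 higher and PATJ, AFDN and CGNL1 lower. AFDN, the gene of afadin, fell by 0.29 over 35 probes (limma, adjusted p = 0.0149), and CGNL1, which encodes paracingulin, by 0.32 (adjusted p = 0.029). AMOT, the gene of angiomotin, which ties the Crumbs complex to Hippo signalling, rose by 0.32 in control and by 0.58 in silenced cells (adjusted p = 0.0353 and 0.0142), on 2 probes. TJP3, the gene of ZO-3, was at -0.09 and did not pass. ESAM, an endothelial relative of JAM-A, rose by 0.47 in control cells (adjusted p = 0.00376), where F11R fell.

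Of the 23 claudins 19 were tested, most on 1 or 2 probes. With the mimic in control cells 2 of the 19 were called (22.6% of all genes): CLDN16 fell by 0.51 and CLDN18 rose by 0.32. In silenced cells 2 were called (7.28% of all genes): CLDN18 rose by 0.61 and CLDN2 by 0.54. CLDN18 had 5.90, 6.33 and 5.76 in cntrl and 6.19, 6.63 and 6.13 in mimic145, groups that overlapped. CLDN16 had 6.72, 6.54 and 6.83 in cntrl and 6.50, 5.92 and 6.14 in mimic145. A CLDN16 probe was well above background on only 2 of the 3 mimic145 arrays. Between sirnaAGO2+mimic145 and mimic145 only 1 claudin, CLDN3, was called, at 0.70 on 1 probe (4.32% of all genes). After silencing alone CLDN3 was at 0.64 without passing, and the difference of its mimic effects was 0.06. Among the 3 tricellular angulins 2 were called in control cells (22.6% of all genes), ILDR1 and ILDR2, which fell by 0.53 and 0.34. The medians over the claudins were -0.04 in control cells and 0.18 in silenced cells, beside 0.01 and 0.02 over all genes.

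**Figure D5:**
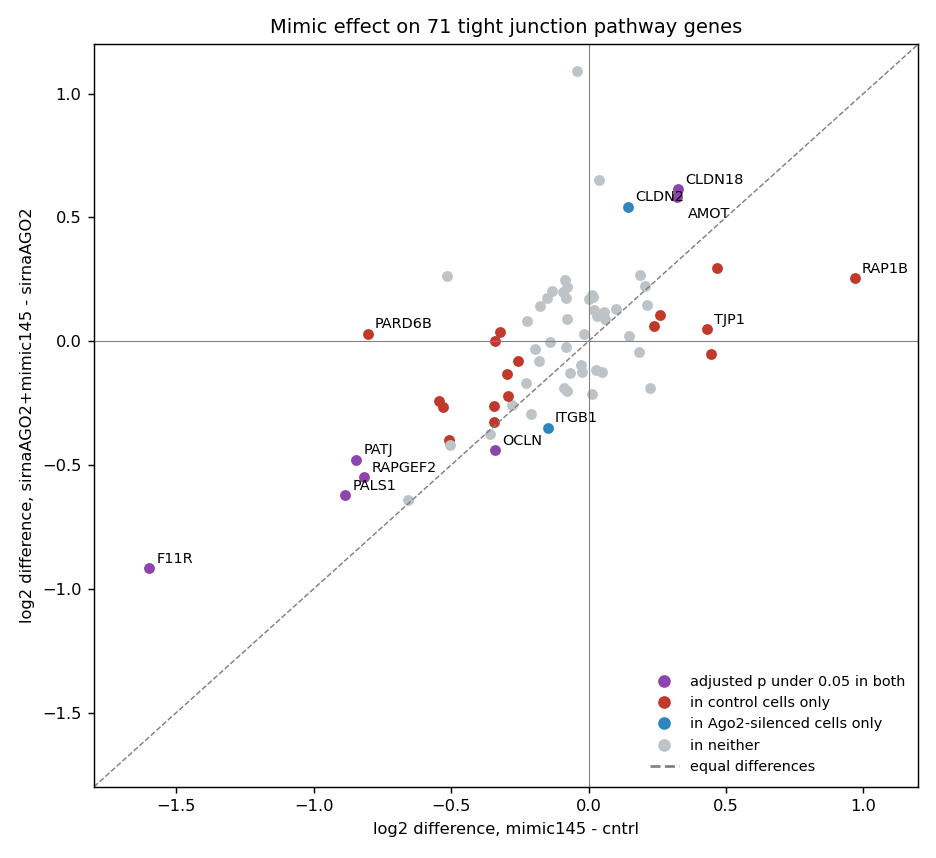
Log2 difference with the mimic in control cells (horizontal axis) and in Ago2-silenced cells (vertical axis) for the 71 tested genes of the tight junction lists, 1 point per gene; colors give where the adjusted p was under 0.05 (limma) and the dashed line marks equal differences. F11R lies farthest out at -1.60 and -0.92, PALS1, PATJ and RAPGEF2 lie next to each other at about -0.85 and -0.55, and RAP1B lies at 0.97 and 0.25.

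The epithelial markers are given beside these values, since tight junction genes are part of the same program. With the mimic in control cells 3 of the 6 tested were called, where 22.6% of all genes were. EPCAM fell by 0.83 (limma, adjusted p = 0.000902) and ERBB3 by 0.39, KRT19 rose by 0.33, and the other 3, CDH1 among them, did not pass. The mean signal over the 6 tested was between 8.87 and 9.05 on the cntrl arrays and between 8.74 and 8.87 on the mimic145 arrays. Over the mesenchymal markers it was between 11.3 and 11.4 and between 11.2 and 11.3, and VIM, the gene of vimentin, and ZEB1, a repressor of epithelial genes, were at -0.18 and 0.23 and did not pass. Their part in the tight junction values was not tested.

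Among the genes whose signal followed F11R most closely over the 12 arrays, of 13328 genes with at least 3 kept probes, were KIAA0319L (Pearson's r = 0.974), PSORS1C1 (0.971), PNPLA4 (0.970) and COXFA4 (0.968). The 12 arrays share slides, replicate numbers and the 4 group means, so these correlations are a description. After the group means were removed, r was between 0.466 and 0.692 for these 4. KIAA0319L, with 21 probes, had differences of -0.85, -0.55 and -0.21 for the mimic in control cells, the mimic in silenced cells and silencing alone. Among the other 8 tight junction genes r with F11R was highest for CXADR and OCLN, at 0.569 and 0.568, and lowest for TJP1, at -0.732.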

How the data were processed

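Gene expression was measured on 12 Agilent SurePrint G3 Human Exon arrays, 3 per group, with groups and replicate numbers from the labels. The authors deposited per array the processed signal, which is an intensity after background correction by Feature Extraction 10.7.3.1 (array annotation of build hg19) and not normalized between arrays. A second deposited table, by the authors, holds quantile normalized log2 values of 217027 probes. It follows the background-subtracted intensity and served as an alternative here. The input here was the processed signal. Control and outlier spots were left out, intensities under 1 were set to 1 (none was), quantile normalized and log2 transformed, and the spots of a probe averaged. Transcript accessions named 209671 of 233164 probes (89.9%) through RefSeq GRCh38.p14. Their positions were not used. The filter on dim probes left 142929 probes and 18253 genes.

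The 4 groups, with replicate number as block, entered 1 model over the 12 arrays in R 4.3.3 with limma 3.58.1 (lmFit, eBayes), with two-sided tests; adjustment by Benjamini-Hochberg ran over every gene tested, and over every kept probe where a probe's value is given. The pairing comes from the labels' replicate numbers and the paired test in the study's methods. Deviations from the group mean correlated between 0.148 and 0.576 for the 18 array pairs of equal number. For the 36 pairs of other numbers in different groups they correlated between -0.497 and 0.201. Deviations cancel out within a group, which pushes the second range down, and arrays of 1 slide are among the 18 pairs. These values are thus a description and no separate test of the pairing. The number of arrays limits the precision, with a median standard error of 0.099 for a difference. Figures used Python 3.11.15, matplotlib 3.10.9 and pandas 2.3.3. The fit was tested on simulated data.

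The 9 genes, the gene lists and the tests were chosen with earlier results of these data known. Named are the 9 genes and their probes, AGO2, the genes of the lists that were called, the 5 genes most like F11R and the markers; any other list gene is named beside its count after its values were seen. Results of some genes these rules name are not reported here. Alternatives were the authors' table, normexp (offset 50), 75th percentile scaling, other filters, the median over probes, no block or slides as a block, fewer groups, an intensity trend, the methods' test, and leaving out each replicate and array. Exon usage was not analysed here.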

Additional observations from a re-analysis of the deposited data

Results flagged for a closer look

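MARVELD2 probe A_37_P005324 was singled out because the mimic moved it in opposite directions in the 2 arms, higher in 3 of 3 pairs of control cells and lower in 3 of 3 pairs of silenced cells. The difference between the arms was -0.81 and did not pass (limma, adjusted p = 0.163). MARVELD2 probe A_37_P229036 met the same criterion, with a difference of -0.37 (adjusted p = 0.405). The gene itself was at -0.22 (adjusted p = 0.440).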

How the results depend on the processing

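Of 1630 alternative values for 63 results, 1365 kept their direction and side of the threshold (counts of calls, their size within 1.5 times). Another 43 that were called in neither setting changed sign by less than their standard error, and 14 changed sign otherwise. The rest kept their sign but gained or lost a call, or were counts of calls that changed by more than 1.5 times. The fall of F11R with the mimic in control cells stayed between -1.69 and -1.06 and passed in 26 of 27 alternatives, the exception being the methods' test on replicate pairs after adjustment (-1.60, adjusted p = 0.147). In silenced cells it passed in 23 of 27, and not where only the arrays of the groups compared were fitted (-0.92, adjusted p = 0.101) or by the methods' test (-0.92, adjusted p = 0.333). After silencing alone it passed in 17 of 27 and not by the methods' test (-0.69, adjusted p = 0.218). Leaving out single replicates or arrays gave -1.06 to -0.83 in silenced cells and -0.72 to -0.65 after silencing alone. The difference of the F11R effects passed in 2 of 26 alternatives, with normexp (0.51) and with probes above background on all 12 arrays (0.76).

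Of the 9 genes, 3, 2, 1, 0 and 0 were called in the 5 comparisons, in the order of the report. With the mimic in control cells this became 4 with normexp, which adds CLDN1, 1 with only the arrays compared, 0 by the methods' test after adjustment and 1 to 3 with replicates or arrays left out. In silenced cells it became 1 with 75th percentile scaling, the authors' table, the strict probe filter, the median over probes, slides as a block and the unadjusted methods' test, 0 with only the arrays compared and the adjusted methods' test, and 0 to 2 with replicates or arrays left out. After silencing alone it became 2 with the strict filter and the unadjusted methods' test, 0 by the adjusted one, and 0 to 1 with replicates or arrays left out. Between sirnaAGO2+mimic145 and mimic145 it became 1 by the unadjusted methods' test, and for the difference of effects 1 with normexp, 1 with the strict filter and 3 by the unadjusted methods' test. F11R probes called in control cells went from 12 to 5 with the strict filter. In silenced cells they went from 7 to 0 without any 1 replicate.

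Without the replicate block 1 of the 9 genes was called in silenced cells in place of 2, OCLN passed in neither arm (adjusted p = 0.409 and 0.371), and the F11R difference of effects had an adjusted p of 0.323.

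Signs turned for JAM2 in control cells without the filter (0.069), with the strict filter (0.066) and with replicates or arrays left out (-0.29 to 0.057), for JAM3 there without the filter (0.056), and for OCLN with the strict filter (0.043 in control cells, 0.089 in silenced cells and 0.068 between sirnaAGO2+mimic145 and mimic145, where leaving out arrays gave -0.12 to 0.063). They also turned for CLDN1 in that last comparison without the filter (-0.16) and without replicate 2 (leaving out replicates or arrays gave -0.071 to 0.44), and in silenced cells for CGN with the median over probes (-0.10) and for AGO2 with 75th percentile scaling and the median over probes (0.019 and 0.023). CLDN1 had no probe left under the strict filter. The 75th percentile scaling moved the median of all genes in silenced cells from 0.02 to 0.11 and the share higher among called genes from 58.4% to 80.2%, with F11R at -0.75. Genes called for the difference of effects went from 2 to 150 with normexp and to 33 with the authors' table, and the adjusted methods' test called 0 genes in any comparison (unadjusted 1888 to 3869). Where these shifts come from was not tested. The dim probes and 3 arrays per group limit what could be seen.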
